A study of Mus musculus with 36 samples.

Results

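The *Cep* genes described here are the protein coding genes of the mouse count table whose symbol begins with Cep and a number, the family of centrosomal proteins named for their place at the centrosome. The rule uses the symbol only, and finds 36 of the 53421 genes in the table. All 36 passed the filter on low counts in every comparison, and the lowest count of a *Cep* gene in any library was 28. The cells were a mouse line of wild type fibroblast-like chondrocytes, conditionally immortalised, which carried either a non-targeting siRNA pool (NT) or siRNA against *Ift88* (IFT88siRNA). *Ift88* encodes a subunit of the intraflagellar transport train that builds the ciliary axoneme. Each arm was sampled in medium only (0 h) and with the inflammatory cytokine IL-1β at 10 ng/ml for 1, 2, 4, 8 or 24 h. Libraries in medium only exist at 0 h alone, so effects of IL-1β and of time since 0 h cannot be told apart. The 12 conditions have 3 libraries each. All 36 libraries come from 1 line, and siRNA transfection is shared by both arms. The labels do not say whether replicates are separate cultures, so each p-value measures the spread between these libraries, which may be technical.

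The centrosome is a pair of centrioles in a matrix of pericentriolar material, and it anchors microtubules in interphase and the spindle poles in mitosis. In quiescent cells the mother centriole uses its distal appendages to dock at the membrane and becomes the basal body of the primary cilium. *Cep* proteins build new centrioles, form the appendages, hold the centriole pair together, cap or uncap the mother centriole, and populate the transition zone and the centriolar satellites. *Cep55* stands apart in function, since it acts at the midbody in the last step of cell division.

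The promoters of *Cep97*, *Cep126*, *Cep131* and *Cep55* are printed because the text returns to these genes: *Cep97* and *Cep126* had the lowest log2 changes of the family at 2 h and *Cep131* at 4 h, and *Cep55* is the cytokinesis gene. Each line holds the 250 bases before a RefSeq start on GRCm38.p6, read 5′ to 3′ on the strand of the gene, with the capitals marking CCAAT, the word bound by NF-Y, or TTTGAA, the cell-cycle homology region, on either strand. They lie at chr16:55934849-55935098 (minus strand), chr9:8134447-8134696 (minus strand), chr11:120086828-120087077 (minus strand) and chr19:38054791-38055040 (plus strand). RefSeq gives 2 starts each for *Cep126* and *Cep55*, and the window that holds one of these words is shown. The bases after the *Cep126* start were not found near the start of any GENCODE transcript of that gene. For the windows shown of *Cep97*, *Cep131* and *Cep55* they were.
Cep97: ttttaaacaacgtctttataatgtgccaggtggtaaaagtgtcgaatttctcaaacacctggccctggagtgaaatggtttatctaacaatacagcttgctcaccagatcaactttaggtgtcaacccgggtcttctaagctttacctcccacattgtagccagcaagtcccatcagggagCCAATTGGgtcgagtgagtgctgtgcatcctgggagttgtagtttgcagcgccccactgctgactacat
Cep126: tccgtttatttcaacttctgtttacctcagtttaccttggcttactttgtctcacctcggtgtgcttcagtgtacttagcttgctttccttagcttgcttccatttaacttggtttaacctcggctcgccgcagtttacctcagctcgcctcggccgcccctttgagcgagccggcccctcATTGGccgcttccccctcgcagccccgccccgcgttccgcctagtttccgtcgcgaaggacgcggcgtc
Cep131: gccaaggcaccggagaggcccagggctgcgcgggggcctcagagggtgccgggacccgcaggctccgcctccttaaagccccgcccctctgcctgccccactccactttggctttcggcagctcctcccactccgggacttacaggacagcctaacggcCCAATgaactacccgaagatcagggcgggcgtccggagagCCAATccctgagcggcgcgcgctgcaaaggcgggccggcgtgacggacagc
Cep55: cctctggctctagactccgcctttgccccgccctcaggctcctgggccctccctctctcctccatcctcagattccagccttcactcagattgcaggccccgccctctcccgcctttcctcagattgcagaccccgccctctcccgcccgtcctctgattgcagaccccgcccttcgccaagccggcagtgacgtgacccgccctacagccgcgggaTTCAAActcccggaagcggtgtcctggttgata
Across the 30 *Cep* genes with a RefSeq promoter, 14 (46.7%) held CCAAT on either strand in such a window, beside 37.5% of all 27025 genes with one. TTTGAA was present in 6 of the 30 (beside 18.3% of all genes), GTTGCC, the core of the X-box bound by RFX factors of ciliary genes, in 4 (13.3%, beside 11.8%), and GGGCGG, a GC box, in 20 (66.7%, beside 35.4%). The NF-κB consensus was found in *Cep112* alone (3.33%, beside 8.23%). The CCAAT words of *Cep97* overlap each other by 2 bases on opposite strands. A match is a description of these letters and not a bound site. Gene positions given with the results are those of the GENCODE M21 annotation of GRCm38.

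Total counts were between 19337022 and 26873538 per library in NT and between 21879056 and 38304127 in IFT88siRNA. *Ift88* was at 9.17, 8.66 and 9.36 CPM in the NT libraries and at 2.59, 2.89 and 2.82 CPM in the IFT88siRNA libraries at 0 h (CPM, counts scaled to the library total and its TMM factor). The groups did not overlap at any time point, and the log2 fold change of *Ift88* was between −2.12 and −1.47 (adjusted p of at most 0.00189). Of 11 chondrocyte markers, 6 were above 1 TPM (a level per transcript length) on average, they summed to between 28.5 and 154 TPM over the NT libraries, and *Acan* and *Col9a1* were at or below 0.1 TPM. The 11 fibroblast and mesenchyme markers were all above 1 TPM and summed to between 4177 and 8194 TPM. Of 9 macrophage and leukocyte markers, 3 (*Cd14*, *Cd68* and *Lyz2*) were above 1 TPM on average, with *Cd14* highest at 20.2 TPM. The 9 summed to between 15.5 and 50.2 TPM over the NT libraries. Within this list *Ptprc*, *Adgre1* and *Cd3e* were at or below 0.1 TPM, as was the endothelial marker *Cdh5*. All 10 genes of an IL-1β response list rose over time in NT, beside 23.6% of all genes called with a rise as the largest change, with *Ccl2* higher by 7.39 on the log2 scale at 2 h (adjusted p = 3.46e-27). In bulk libraries, fewer cells of a type and less RNA per cell cannot be told apart.

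At rest the family spanned a wide range. In NT at 0 h the median *Cep* gene was at 22.3 TPM, beside 17.3 TPM over all genes tested. *Cep170b*, a paralogue of the microtubule-binding *Cep170*, had the highest level at 130 ± 3.81 TPM (SD, n = 3). *Cep57* followed at 83.9 ± 0.427 TPM, *Cep85* at 66.7 ± 3.37 TPM and *Cep55* at 65.8 ± 1.83 TPM, where the last 2 lay within 1 SD of each other. *Cep85l* at 2.73 ± 0.272 TPM and *Cep126* at 3.38 ± 0.167 TPM were at the bottom at 0 h, and *Cep126* had the lowest mean over all 36 libraries.

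After IL-1β a part of the family fell, and some of these genes were also below 0 h at 24 h. In NT, 14 of 36 *Cep* genes were called over time (adjusted p under 0.05 in edgeR's quasi-likelihood test over all genes and a change from 0 h over 1.5-fold at some time point), where 50.0% of all 16048 genes tested were called. For all 14 the largest change was a fall, and 26.3% of all genes were called with a fall as the largest change. No *Cep* gene was called and over 1.5-fold above 0 h at any time in NT, against 27.2% of all genes. Without the fold threshold, 35 of 36 passed the adjusted p beside 88.4% of all genes. *Cep350* was the one that did not, with means between 45.7 and 52.2 CPM.

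The falls were concentrated at 2 and 4 h. The median log2 change of the 36 genes was −0.08 at 1 h, −0.35 at 2 h, −0.29 at 4 h, −0.13 at 8 h and −0.07 at 24 h, while the median over all genes stayed between −0.02 and −0.01. At 2 h, 9 *Cep* genes were called lower and 0 higher, beside 14.3% and 13.0% of all genes, and the adjusted p alone gave 26 lower and 3 higher, beside 30.2% and 30.7%. At 4 h, 8 were called lower and 0 higher, beside 12.4% and 16.3%, and the adjusted p alone gave 23 lower and 6 higher, beside 29.7% and 31.2%. At 1 h only *Cep126* and *Cep55* were called, both lower, beside 9.45% of all genes, and at 8 h only *Cep170b*, also lower, beside 7.87%. At 24 h edgeR called 0 *Cep* genes, as did DESeq2, where 16.3% of all genes were called. There 20 had an unadjusted p under 0.05, beside 51.3% of all genes. The adjusted p alone gave 11 lower and 4 higher, beside 23.2% and 21.7%.

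The size of the fall depends on how libraries are scaled. TMM factors were between 1.11 and 1.12 at 0 h and between 0.899 and 0.919 at 2 h in NT, and with library totals alone the median of all genes moved by −0.29 at 2 h and −0.30 at 4 h. The median of the *Cep* genes was then −0.64 and −0.59, below that of all genes as under TMM. On the deposited TPM, which carry no such scaling, limma called 22 *Cep* genes over time, 19 at 2 h and 15 at 4 h, beside 44.6%, 24.7% and 26.5% of all genes. The *Cep* genes together took 0.195 ± 0.00158% of all counts in NT at 0 h, 0.125 ± 0.000974% at 2 h and 0.176 ± 0.00223% at 24 h (SD, n = 3).

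**Figure D1:**
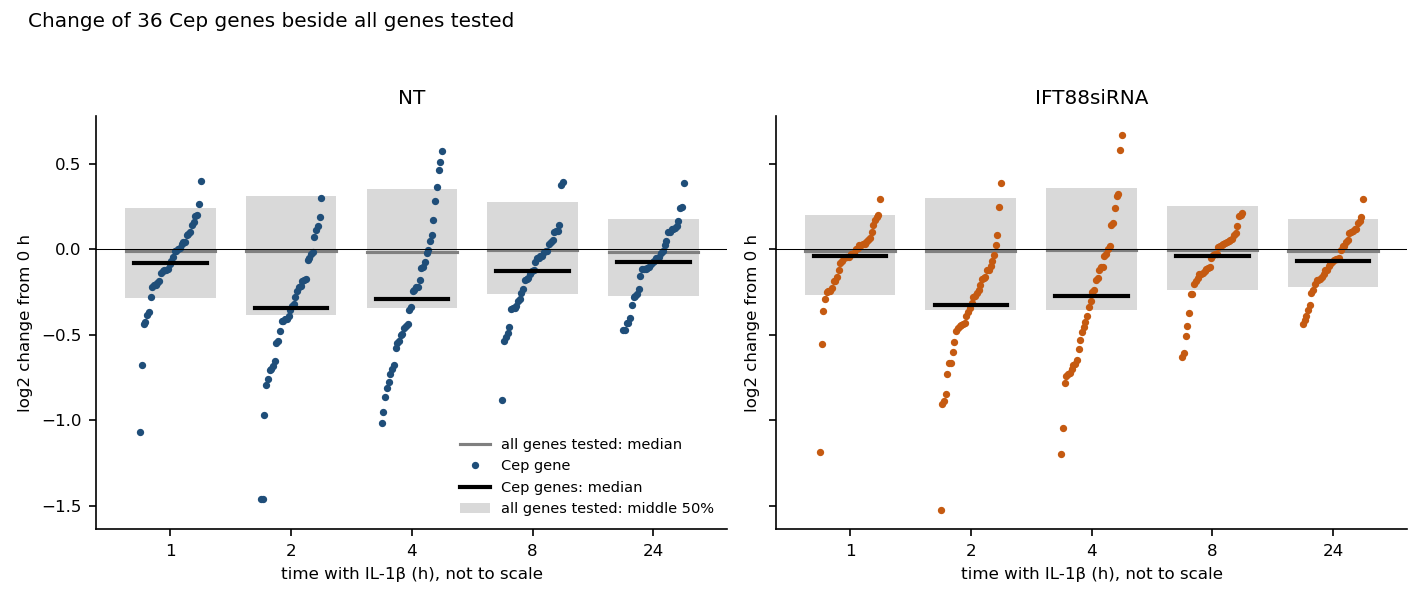
Log2 change from 0 h (y axis) at each time after IL-1β (x axis, hours, not to scale) in NT (left) and IFT88siRNA (right), where each point is 1 of 36 *Cep* genes, the black bar their median, the grey box the middle 50% of all genes tested and the grey bar their median. The black bar is lowest at 2 h, at −0.35 in NT and −0.33 in IFT88siRNA, and close to the grey bar at 24 h.

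Genes differed in when they were lowest. In NT, 18 of 36 *Cep* genes had their lowest mean at 2 h, beside 20.4% of all genes, and 9 had it at 4 h, beside 19.1%. A further 6 were lowest at 8 h, 2 at 1 h, 1 at 24 h and 0 at 0 h, and 12.9% of all genes were lowest at 0 h. Of the 14 called genes, 9 were lowest at 2 h, 4 at 4 h and 1 at 8 h.

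**Figure D2:**
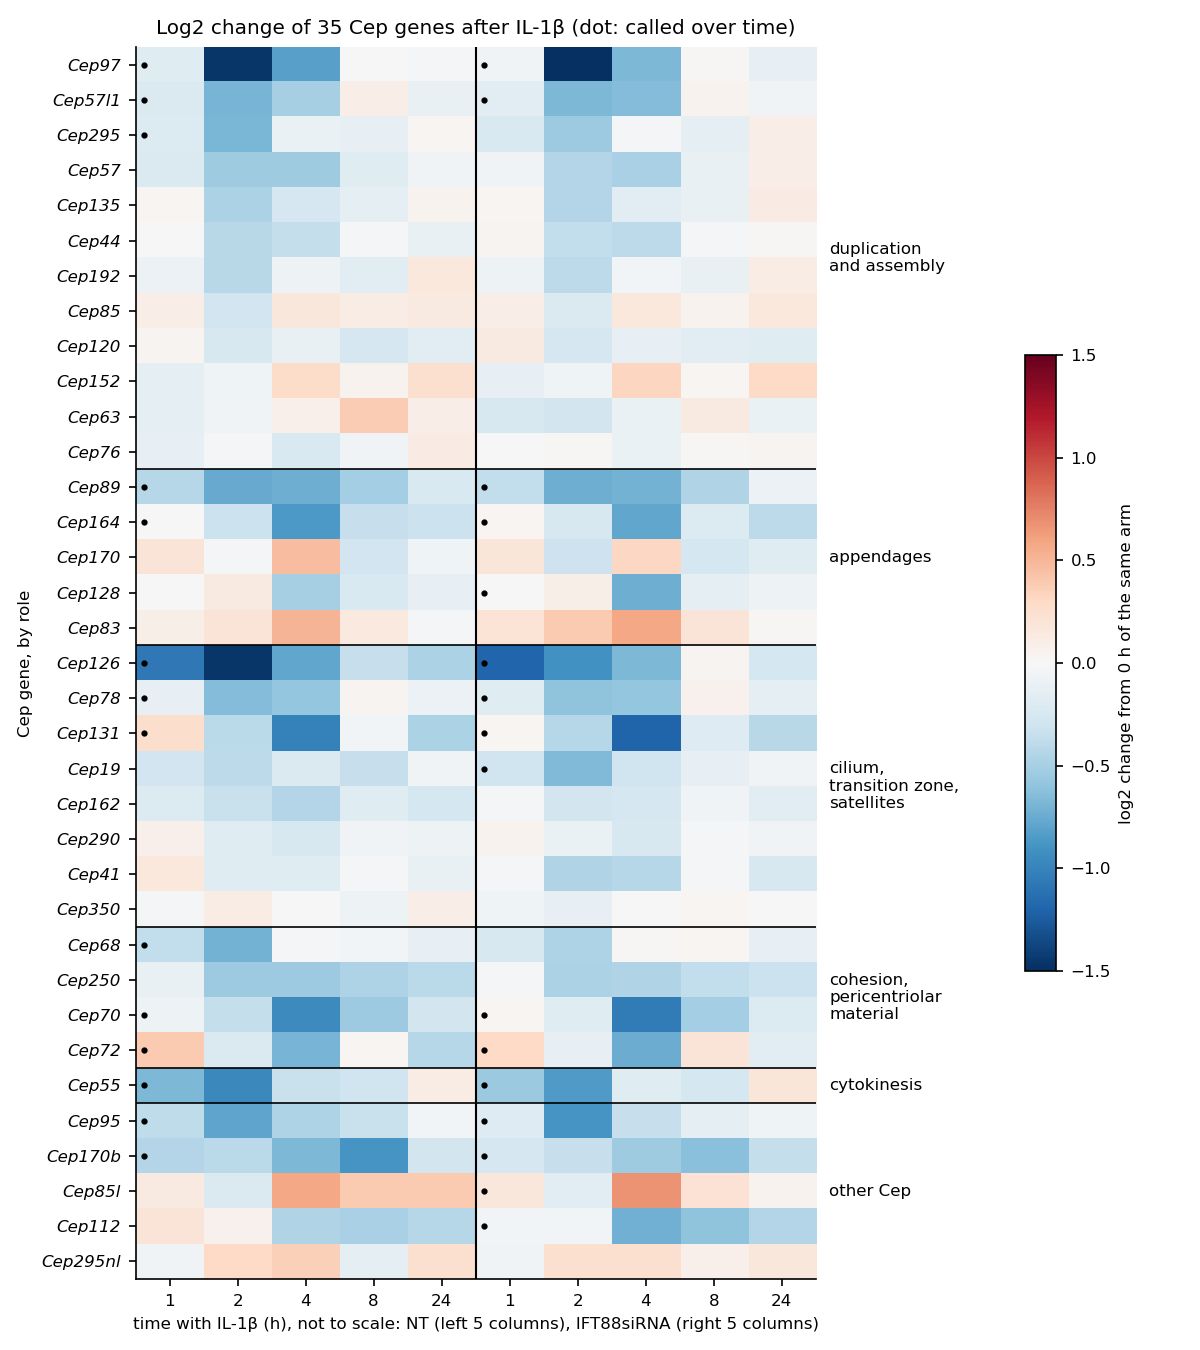
Log2 change from the 0 h mean of the same arm for 35 of the 36 *Cep* genes (rows, grouped by role) at the 5 times after IL-1β in NT (left) and IFT88siRNA (right), where blue is lower, red is higher and a dot marks a gene called over time in that arm. In NT, *Cep97* and *Cep126* are darkest at 2 h and *Cep131*, *Cep70* and *Cep164* at 4 h, while *Cep83* and *Cep85l* are red at 4 h.

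Centriole duplication and assembly genes fell mainly at 2 h. All 12 had a log2 change below 0 at 2 h in NT, with a median of −0.42, and *Cep97*, *Cep57l1* and *Cep295* were called. The median was −0.17 at 4 h and 0.04 at 24 h. *Cep97* (ENSMUSG00000022604, chr16:55899888-55934855, minus strand), which with CP110 caps the distal end of the centriole and holds back cilium formation, had the lowest log2 change of this role. In NT it was at 18.6, 19.8 and 18.1 CPM at 0 h and at 16.9, 16.6 and 16.3 CPM at 1 h. At 2 h it was at 7.46, 7.43 and 5.73 CPM and at 4 h at 11.3, 11.02 and 9.67 CPM. All 2 h libraries lay below all 4 h libraries, and both groups lay below every 0 h and 1 h library. At 8 h *Cep97* was at 18.2, 19.1 and 18.6 CPM and at 24 h at 18.8, 18.2 and 18.9 CPM, which overlaps 0 h. The log2 change was −1.46 ± 0.0845 (SE) at 2 h (adjusted p = 2.15e-13), which leaves 36.3% of the 0 h level, and −0.01 at 8 h (adjusted p = 0.923).

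*Cep57l1*, a relative of the centriole scaffold gene *Cep57*, fell to 61.6% of its 0 h level at 2 h (25.1, 23.8 and 26.2 CPM at 0 h, 15.1, 15.7 and 15.5 CPM at 2 h, adjusted p = 2.56e-09). *Cep295*, needed for the conversion of new centrioles into centrosomes, went from 62.8, 68.2 and 65.2 CPM at 0 h to 40.3, 38.1 and 44.3 CPM at 2 h, a log2 change of −0.68 (adjusted p = 8.81e-10). At 24 h the libraries of both genes overlapped those of 0 h. For *Cep295*, 19.1% of the exonic length overlaps other genes on the opposite strand, and the counting, with the default settings of featureCounts, did not use strand, so reads there cannot be assigned to 1 strand. The other 9 genes of this role stayed within 1.5-fold of 0 h. Of these, *Cep57* (−0.54 at 2 h), the cartwheel gene *Cep135* (−0.48), *Cep44* (−0.42) and *Cep192* (−0.42), which recruits pericentriolar material and PLK4, fell with an adjusted p of at most 1.37e-06. *Cep152*, the PLK4 scaffold, gave the opposite sign at 4 h with 0.28 (adjusted p = 0.00275), a sign that turns when library totals alone are used.

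**Figure D3:**
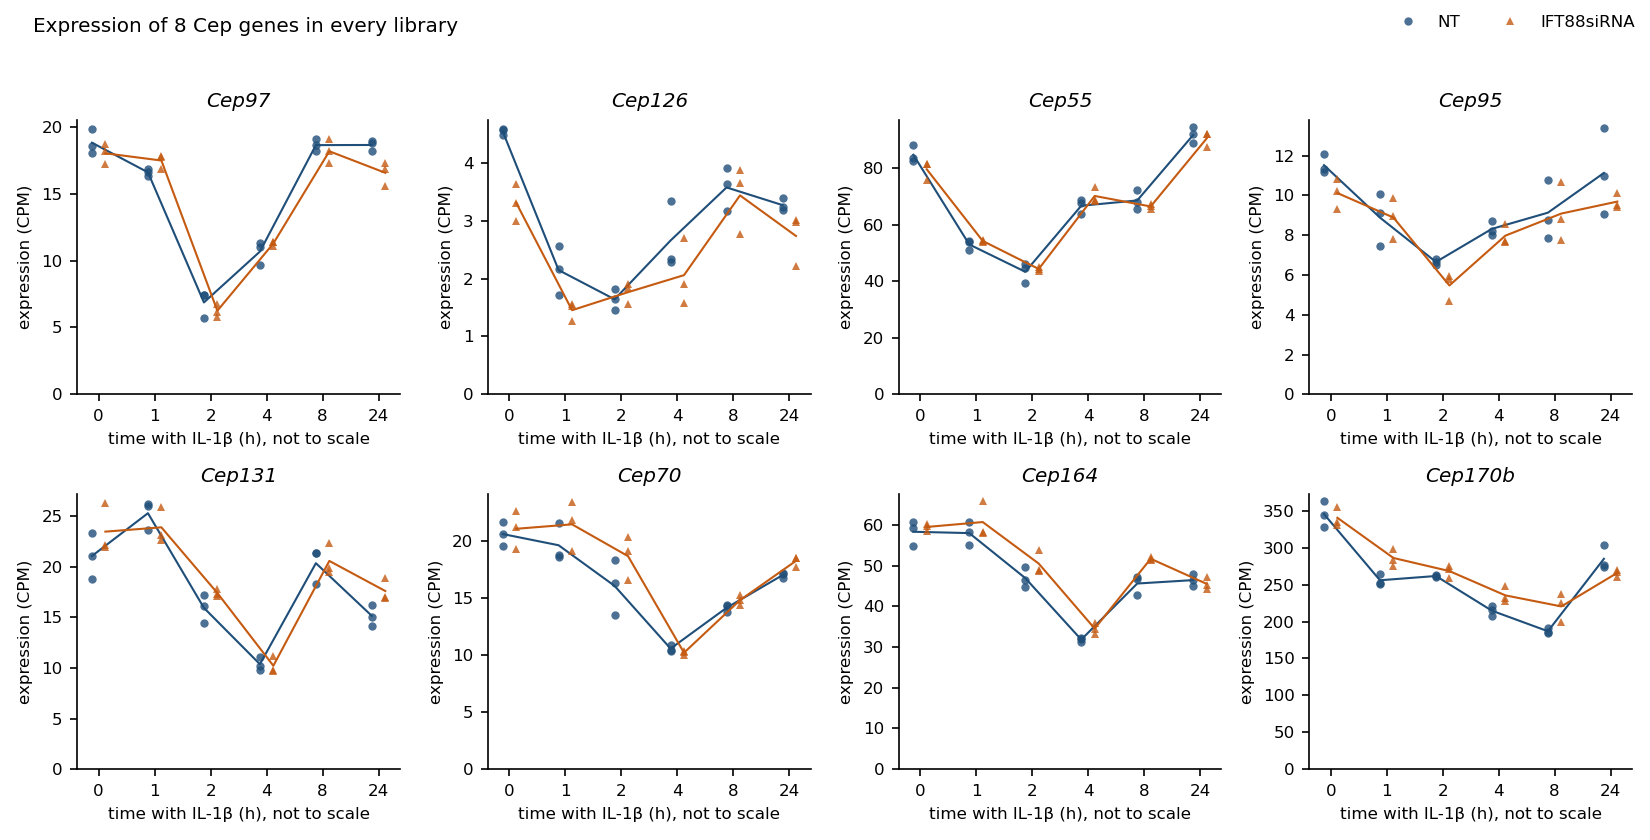
Expression in CPM (y axis, from 0) of 8 *Cep* genes in every library at 0 to 24 h with IL-1β (x axis, hours, not to scale), with circles for NT, triangles for IFT88siRNA and lines through the means of 3 libraries. The upper 4 genes are lowest in NT at 2 h, *Cep131*, *Cep70* and *Cep164* at 4 h and *Cep170b* at 8 h, and in IFT88siRNA *Cep126* is lowest at 1 h.

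The 5 centriolar appendage genes went both ways, with *Cep164* and *Cep89* called lower. *Cep164* (ENSMUSG00000043987, chr9:45766946-45828691, minus strand), the distal appendage protein that recruits TTBK2 to start uncapping and docking, was at 60.7, 59.3 and 54.9 CPM at 0 h and 55.005, 60.8 and 58.1 CPM at 1 h. It was at 46.4, 49.7 and 44.7 CPM at 2 h and 31.3, 32.3 and 31.8 CPM at 4 h. The 4 h libraries lay below all others of the arm. *Cep164* was at 42.9, 46.7 and 47.2 CPM at 8 h and 46.5, 44.9 and 47.9 CPM at 24 h, still below every 0 h library. The log2 change was −0.87 ± 0.0561 at 4 h (adjusted p = 1.33e-12) and −0.33 at 24 h (adjusted p = 1.42e-05). *Cep89*, another distal appendage gene, was called lower at both 2 h and 4 h. It went from 32.4, 28.3 and 29.4 CPM at 0 h to 16.8, 18.3 and 18.3 CPM at 2 h and 16.8, 18.2 and 18.9 CPM at 4 h. Its 2 h and 4 h libraries overlap, and the log2 changes were −0.76 and −0.73 (adjusted p = 1.11e-09 and 2.05e-09).

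*Cep83*, at the base of the distal appendages, rose instead. It was at 39.05, 41.4 and 42.2 CPM at 0 h and 60.4, 56.3 and 56.9 CPM at 4 h, where the groups do not overlap, and its log2 change of 0.51 ± 0.0516 (adjusted p = 5.48e-09) stayed under the fold threshold. *Cep170*, a subdistal appendage gene, was likewise higher at 4 h, at 156, 158 and 156 CPM against 111, 119 and 113 CPM at 0 h (log2 change 0.46, adjusted p = 1.39e-08). At 8 h it was lower than at 0 h (−0.29, adjusted p = 2.42e-05). *Cep128*, also subdistal, fell at 4 h by 0.50 on the log2 scale (adjusted p = 8.12e-08). Under library totals alone *Cep83* and *Cep170* kept their sign at 4 h, and the sign of *Cep83* at 2 h turned.

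The cilium assembly, transition zone and satellite genes held both members with a fall past 2-fold at their lowest time and members that hardly moved. *Cep126* (ENSMUSG00000040729, chr9:8076461-8134294, minus strand), a centrosomal protein of microtubule organisation and cilium formation, fell first. In NT it was at 4.48, 4.58 and 4.57 CPM at 0 h, 1.71, 2.56 and 2.17 CPM at 1 h and 1.46, 1.64 and 1.82 CPM at 2 h. It was at 3.34, 2.34 and 2.29 CPM at 4 h, 3.91, 3.17 and 3.63 CPM at 8 h and 3.18, 3.23 and 3.39 CPM at 24 h. Every library after IL-1β lay below every 0 h library. The log2 change was −1.07 ± 0.157 at 1 h and −1.46 ± 0.165 at 2 h (adjusted p = 3.81e-06 and 3.86e-08), and −0.47 at 24 h (adjusted p = 0.00750). Its counts were between 28 and 124 per library, so its values carry more counting error than those of the other genes.

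*Cep131* (ENSMUSG00000039781, chr11:120064430-120086827, minus strand), a centriolar satellite protein of cilium formation, was at 23.4, 18.8 and 21.1 CPM at 0 h and 26.1, 26.3 and 23.6 CPM at 1 h, a small rise (log2 change 0.26, adjusted p = 0.00974) that keeps its sign under library totals alone. It was at 16.2, 17.2 and 14.5 CPM at 2 h and 10.2, 9.82 and 11.1 CPM at 4 h, where both groups lay below every 0 h library and the 4 h libraries below all others of the arm. It was at 18.3, 21.4 and 21.4 CPM at 8 h, overlapping 0 h, and at 14.1, 15.1 and 16.3 CPM at 24 h, below it. The log2 change was −1.01 ± 0.0936 at 4 h (adjusted p = 1.03e-09). It was −0.04 at 8 h, where the adjusted p was 0.706, and −0.47 at 24 h, where it was 5.76e-05. *Cep78*, a centriolar wall protein, was the third called gene of this role, at 63.7% of its 0 h level at 2 h and 66.9% at 4 h (adjusted p = 1.47e-07 and 9.39e-07).

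The transition zone genes *Cep290* and *Cep162* stayed within 1.5-fold of 0 h. *Cep290*, a core transition zone protein, went from 34.7 ± 0.866 CPM in medium to 29.2 ± 1.47 CPM after 4 h, where the errors are SDs of 3 libraries (log2 change −0.24, adjusted p = 0.00103). *Cep162*, which promotes transition zone assembly, had a log2 change of −0.44 at 4 h (adjusted p = 5.11e-08). For *Cep290*, 7.58% of the exonic length is shared with a gene on the opposite strand.

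All 4 genes of centrosome cohesion and pericentriolar material were below 0 h at 2, 4 and 24 h, with a median of −0.62 at 4 h, and 3 were called over time. *Cep68*, a linker protein between the centrioles, fell early and briefly, from 32.4, 32.6 and 34.8 CPM at 0 h to 19.8, 20.2 and 21.2 CPM at 2 h and back to 31.5, 32.6 and 33.3 CPM at 4 h. The 4 h libraries overlap those of 0 h, and the log2 changes were −0.71 (adjusted p = 3.69e-11) and −0.02 (adjusted p = 0.712). *Cep70* (ENSMUSG00000056267, chr9:99243367-99300404, plus strand), which binds γ-tubulin, was at 20.7, 19.6 and 21.6 CPM at 0 h, 18.6, 18.8 and 21.6 CPM at 1 h and 13.6, 18.3 and 16.4 CPM at 2 h. It was at 10.4, 10.5 and 10.9 CPM at 4 h, 14.4, 14.3 and 13.8 CPM at 8 h and 17.1, 17.2 and 16.8 CPM at 24 h. The 4 h libraries were lowest without overlap, and those of 24 h were still below 0 h. The log2 change of *Cep70* was −0.95 ± 0.0875 at 4 h (adjusted p = 9.17e-10). *Cep72*, a pericentriolar protein, rose at 1 h to 41.3, 37.9 and 42.9 CPM from 29.2, 31.05 and 32.2 CPM (log2 change 0.40, adjusted p = 8.09e-06, the same sign under library totals alone) and then fell to 19.4, 18.6 and 18.6 CPM at 4 h (−0.70, adjusted p = 2.52e-09). *Cep250*, the linker anchor C-Nap1, went from 91.1 ± 6.74 CPM in medium to 68.9 ± 4.68 CPM after 24 h, with a log2 change of −0.40 (adjusted p = 8.26e-06), and 11.1% of its exonic length is shared with a gene on the opposite strand.

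*Cep55* (ENSMUSG00000024989, chr19:38055011-38074423, plus strand), which recruits the ESCRT machinery for the final cut between daughter cells, fell at 1 and 2 h and was back by 24 h. It was at 82.7, 83.5 and 88.1 CPM at 0 h, 53.8, 54.2 and 51.2 CPM at 1 h and 44.9, 39.2 and 46.03 CPM at 2 h. It was at 67.6, 68.8 and 63.8 CPM at 4 h, 65.5, 72.2 and 68.2 CPM at 8 h and 92.1, 94.5 and 88.8 CPM at 24 h. The libraries of 1 to 8 h all lay below those of 0 h, and those of 24 h all lay above. The log2 change was −0.97 ± 0.0550 at 2 h (adjusted p = 1.42e-13) and 0.12 ± 0.0513 at 24 h (adjusted p = 0.0713). Mitotic cell-cycle markers also fell. Of the 20 genes of that list, 18 were called over time in NT and all 18 fell, beside 50.0% of all genes called and 26.3% with a fall. The list had a median log2 change of −0.70 at 2 h, −0.64 at 4 h, −0.49 at 8 h and 0.04 at 24 h. That of *Cep55* was −0.34 at 4 h and −0.30 at 8 h. Of the list, 16 genes were called higher at 24 h than at 2 h, beside 15.6% of all genes. *Cenpf*, a kinetochore gene, changed by −1.47, the mitotic kinase gene *Aurka* by −1.34 and *Plk1* by −1.10 at 2 h, and the kinesin gene *Kif20a* by −0.99 at 4 h (adjusted p of at most 5.11e-15). The summed level of the list was between 1575 and 3039 TPM over the NT libraries, with none of its genes at or below 0.1 TPM. The part of a change in cycling cells in the fall of the *Cep* genes was not tested.

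S-phase markers stayed closer to 0 h. Their median log2 change was between 0.01 and 0.07 under TMM scaling at the 5 times in NT, and 3 of 16 were called over time (all genes 50.0%), *Mcm6* higher (0.87 at 4 h) and *Ccne2* and *Rrm2* lower (−0.72 and −0.60 at 1 h). Their summed level was between 2570 and 2963 TPM in NT.

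In the remaining group, *Cep170b* (ENSMUSG00000072825, chr12:112720455-112746592, plus strand) was lowest at 8 h in NT, as were *Cep112* and *Cep295nl*, and it was the only one of these 3 called there. It was at 364, 345 and 329 CPM at 0 h, 252, 265 and 251 CPM at 1 h and 262, 264 and 260 CPM at 2 h. It was at 221, 208 and 216 CPM at 4 h, 191, 185 and 185 CPM at 8 h and 305, 275 and 276 CPM at 24 h. The 8 h libraries were the lowest of the arm, and every library after IL-1β was below every 0 h library. Its log2 change was −0.88 ± 0.0447 at 8 h (adjusted p = 1.92e-14). *Cep95* (ENSMUSG00000018372, chr11:106789252-106819930, plus strand) was at 12.1, 11.2 and 11.3 CPM at 0 h, 10.1, 7.46 and 9.11 CPM at 1 h and 6.52, 6.65 and 6.80 CPM at 2 h. It was at 8.21, 8.03 and 8.72 CPM at 4 h, 7.87, 10.8 and 8.78 CPM at 8 h and 9.05, 10.97 and 13.4 CPM at 24 h. Only the 24 h libraries overlapped 0 h, and the log2 change was −0.79 ± 0.132 at 2 h (adjusted p = 1.34e-05).

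Pairs of related genes did not always share a profile. *Cep57* and *Cep57l1* both fell, by 0.54 and 0.70 at 2 h and by 0.54 and 0.50 at 4 h on the log2 scale. *Cep170* and *Cep170b* differed in sign at 4 h (0.46 and −0.68) and shared it at 8 h (−0.29 and −0.88). *Cep85*, a regulator of centriole duplication, and *Cep85l* were both higher at 4 h (0.17 and 0.58, adjusted p = 0.00100 and 3.39e-06), a sign that turns for *Cep85* and stays for *Cep85l* under library totals alone. *Cep295* was lower at 2 h (−0.68) where *Cep295nl* was higher (0.30, adjusted p = 0.0325). Differences within a pair were not tested, and reads from stretches that are near-identical between relatives may have been split or dropped by the counting.

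A part of the family rose again between 2 h and 24 h. At 24 h, 8 *Cep* genes were called higher than at 2 h and 0 lower, where 32.8% of all genes were called, 15.6% higher and 17.1% lower. They were *Cep97* (1.45), *Cep55* (1.09), *Cep126* (0.99), *Cep95* (0.75), *Cep295* (0.71), *Cep85l* (0.60), *Cep57l1* (0.59) and *Cep68* (0.59). This comparison shares its 2 h libraries with the comparison of 2 h against 0 h. At 24 h *Cep126*, *Cep131*, *Cep72*, *Cep112* and *Cep250* were below 0 h, with log2 changes of −0.47, −0.47, −0.43, −0.43 and −0.40 (adjusted p of at most 0.00750). Of these, *Cep131* and *Cep72* had been near 0 h at 8 h, with log2 changes of −0.04 and 0.03.

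In the arm with IFT88siRNA, whose libraries are separate from those of NT, 16 of 36 *Cep* genes were called over time, beside 48.2% of all genes, 15 with a fall as the largest change (all genes 25.5%) and *Cep85l* with a rise. The *Cep* genes called in both arms numbered 12, which is 12 of the 14 called in NT and 12 of the 16 called in IFT88siRNA. Over all genes these shares were 86.2% and 88.6%. *Cep295* and *Cep68* were called in NT alone, and *Cep112*, *Cep128*, *Cep19* and *Cep85l* in IFT88siRNA alone, which does not show that the arms differ. At 1 h *Cep126* was called (all genes 15.1%), at 2 h 8 genes, all lower (25.6%, and 13.2% lower), at 4 h 11 genes, 10 of them lower (29.3%, and 13.3% lower), and at 8 h *Cep112* and *Cep170b*, both lower (17.6%). At 24 h 0 were called by edgeR and by DESeq2 (14.2% of all genes), and 15 had an unadjusted p under 0.05, beside 46.8%.

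*Cep97* had the lowest log2 change of the family in this arm, at 18.7, 18.2 and 17.2 CPM at 0 h, 6.77, 5.82 and 6.18 CPM at 2 h and 17.3, 18.2 and 19.1 CPM at 8 h in IFT88siRNA (log2 change at 2 h −1.53 ± 0.0782, adjusted p = 2.79e-14). *Cep131* was at 21.99, 26.4 and 22.1 CPM at 0 h and 9.78, 9.74 and 11.1 CPM at 4 h (log2 change −1.20 ± 0.0885, adjusted p = 2.01e-11). *Cep55* was at 81.6, 75.9 and 81.5 CPM at 0 h, 44.9, 44.4 and 43.8 CPM at 2 h and 92.02, 92.03 and 87.6 CPM at 24 h (log2 change at 2 h −0.85, adjusted p = 9e-14). In each of these 3 genes the libraries of the low time did not overlap those of 0 h. *Cep85l* was at 10.2, 7.99 and 11.6 CPM at 0 h and 15.8, 15.2 and 16.2 CPM at 4 h, a log2 change of 0.67 (adjusted p = 8.51e-06) beside 0.58 in NT, and 7.26% of its exonic length is shared with genes on the opposite strand.

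Across the 36 genes the log2 changes of the 2 arms had a Pearson's r of 0.91 at 1 h, 0.92 at 2 h, 0.96 at 4 h, 0.88 at 8 h and 0.85 at 24 h, beside 0.86, 0.90, 0.94, 0.92 and 0.91 over all 15825 genes tested in both arms. These are correlations across genes, which are not independent replicates, and the arms share the cell line and the counting. The lowest mean was at the same time in both arms for 26 of 36 *Cep* genes (72.2%), beside 69.9% of all genes.

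**Figure D4:**
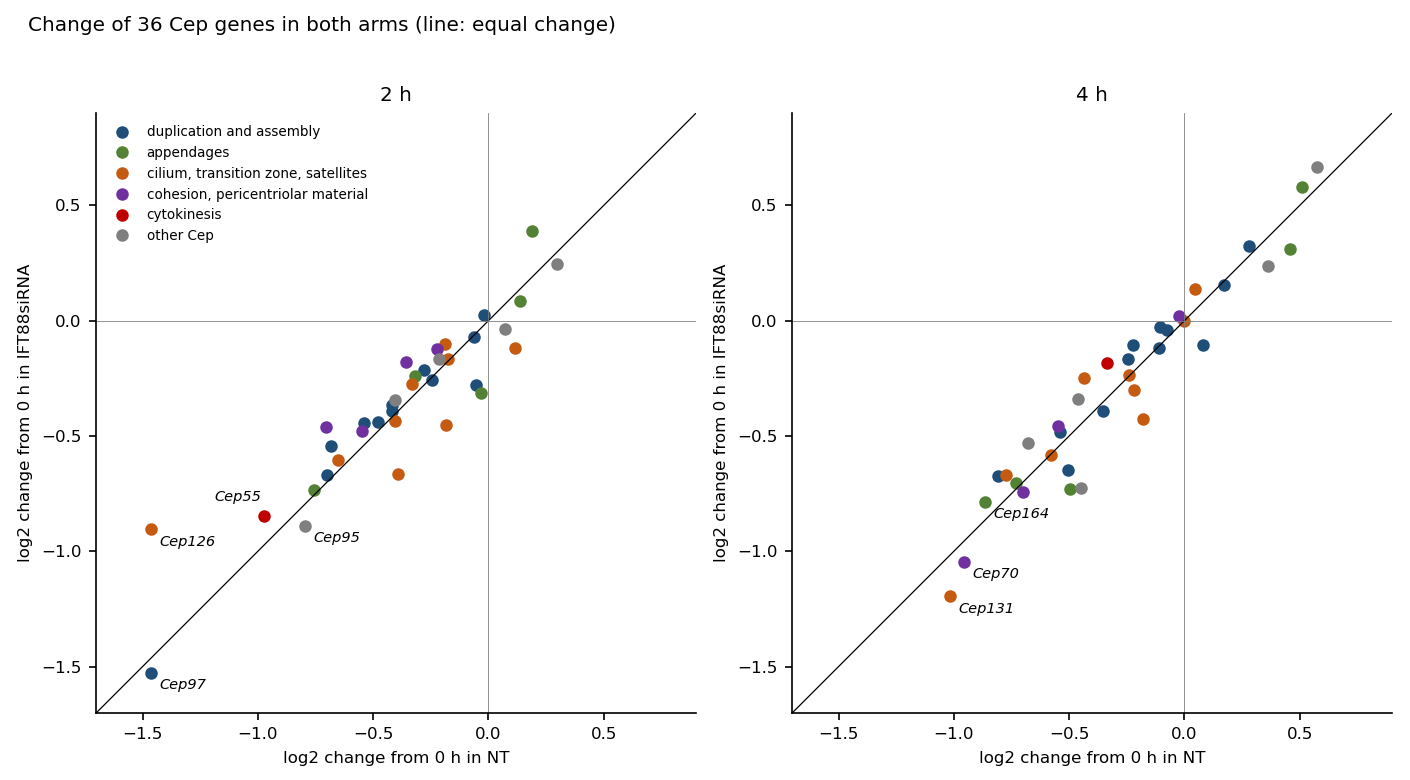
Log2 change from 0 h in IFT88siRNA (y axis) against that in NT (x axis) for 36 *Cep* genes at 2 h (left) and 4 h (right), coloured by role, with the line of equal change. *Cep97* lies near the line at 2 h (−1.46 in NT, −1.53 in IFT88siRNA), and *Cep126* lies above it (−1.46 and −0.90). For *Cep126* the difference in response over time had an adjusted p of 0.474 in edgeR.

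In IFT88siRNA the *Cep* genes were within 1.5-fold of NT at every time point, by their estimated fold changes. By edgeR and by DESeq2, 0 of 36 were called at 0 h (all genes 2.23%), 1 h (2.66%), 2 h (0.496%), 4 h (0.432%), 8 h (0.692%) and 24 h (1.15%), over time (5.19%) and for the difference in response (1.20%). The *Cep* genes with an unadjusted p under 0.05, with the share of all genes in brackets, numbered 10 (32.1%) at 0 h, 9 (32.4%) at 1 h, 7 (17.2%) at 2 h, 5 (17.9%) at 4 h, 7 (21.1%) at 8 h and 13 (22.2%) at 24 h. Over time there were 18 (41.5%) and for the difference in response 8 (16.8%). The standard error of the log2 fold change had a median of 0.0595 over the 36 genes at 0 h and 0.0758 at 2 h, and log2 fold changes were between −0.46 and 0.16 at 0 h and between −0.35 and 0.23 at 2 h. The largest difference was that of *Cep126* at 1 h, −0.58 ± 0.204 (adjusted p = 0.0565).

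**Figure D5:**
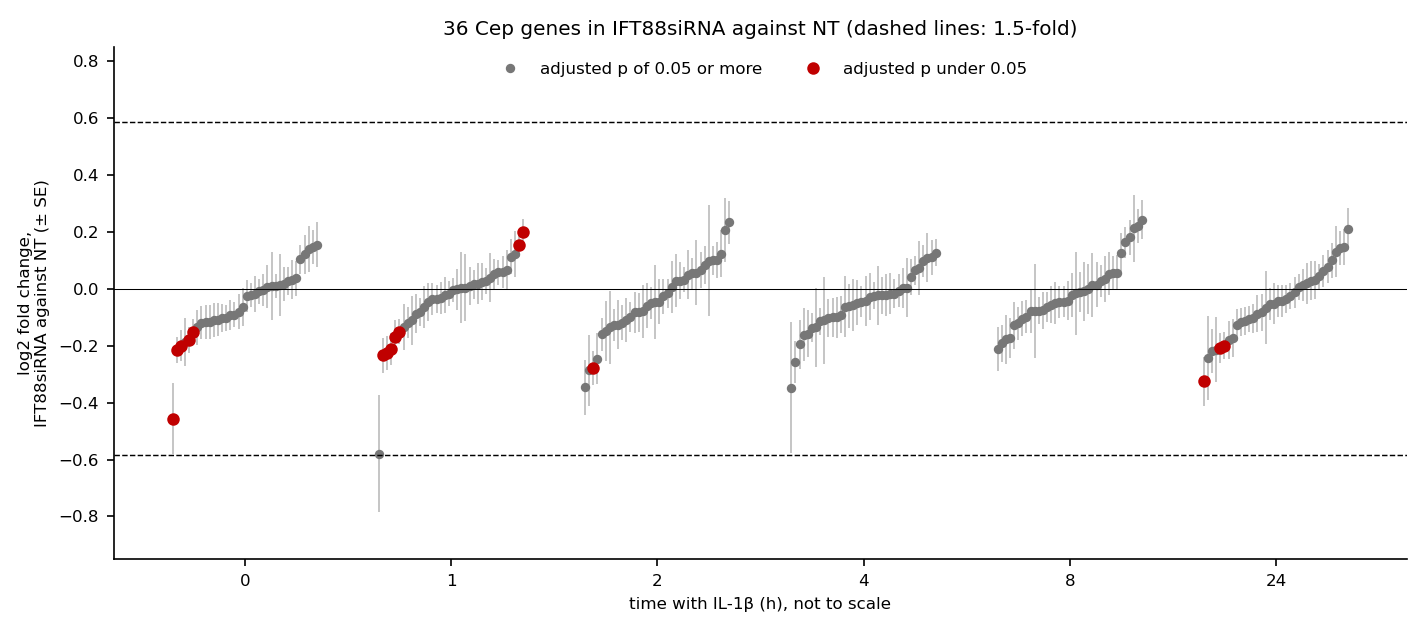
Log2 fold change of IFT88siRNA against NT (y axis) for 36 *Cep* genes, ranked within each time point (x axis, hours with IL-1β), with bars for 1 SE, red for an adjusted p under 0.05 and dashed lines at 1.5-fold. All points lie between the dashed lines, and red points are seen at 0, 1, 2 and 24 h.

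Small differences passed the adjusted p alone. At 0 h there were 5, all lower in IFT88siRNA, beside 9.43% of all genes lower at this threshold. They were *Cep126* (−0.46 ± 0.125, adjusted p = 0.0121), *Cep162* (−0.21, adjusted p = 0.00229), *Cep290* (−0.20, adjusted p = 0.0113), *Cep295* (−0.18, adjusted p = 0.00779) and *Cep192* (−0.15, adjusted p = 0.0174). *Cep126* was at 4.48, 4.58 and 4.57 CPM in NT and 3.31, 2.99 and 3.64 CPM in IFT88siRNA at 0 h, groups that do not overlap. *Cep290* was at 35.7, 34.2 and 34.2 CPM and 31.1, 29.2 and 30.4 CPM, also without overlap. At 1 h there were 7, of which *Cep192*, *Cep290*, *Cep295*, *Cep350* and *Cep72* were lower and *Cep120* and *Cep170b* higher, beside 10.2% and 8.75% of all genes. At 2 h there was *Cep170* (−0.28, adjusted p = 0.0351, beside 1.93% of all genes lower), at 4 and 8 h none, and at 24 h *Cep192* (−0.20), *Cep76* (−0.21) and *Cep85l* (−0.33) were lower, beside 5.02%. Each of these 16 differences missed the adjusted p under at least 1 of 17 alternatives, from 1 for *Cep162* at 0 h to 13 for *Cep350* at 1 h, with the sign kept in all.

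The sign of the difference was constant for some genes. In IFT88siRNA, 9 of 36 *Cep* genes were lower at all 6 times, beside 13.0% of all genes, among them *Cep135*, *Cep162*, *Cep192*, *Cep290*, *Cep295* and *Cep350*. *Cep120*, a gene of centriole elongation, was higher at all 6, beside 15.1%. *Cep192* was between −0.20 and −0.10, and *Cep290* between −0.23 and −0.12. *Cep192* was at 132, 125 and 123 CPM in NT and 113, 114 and 106 CPM in IFT88siRNA at 24 h. Of the 9, 2 had a difference near 0 whose sign turns under the size factors of DESeq2, among them *Cep350* at 8 h (−0.01).

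Other genes of the centrosome and cilium base moved in both directions. Of 35 other centriole and centrosome genes, 10 were called over time in NT, beside 50.0% of all genes. The largest change was a fall in 8 and a rise in 2, beside 26.3% and 23.6%, and their median log2 change was −0.24 at 2 h and −0.28 at 4 h. *Crocc*, the gene of the ciliary rootlet protein, fell by 1.06 at 4 h and the centriole gene *Poc5* by 0.92 at 2 h on the log2 scale (adjusted p = 1.9e-10 and 9.01e-12). *Cenpj*, which sets centriole length, was lower at 2 h (−0.68) and higher at 4 h (1.44, adjusted p = 1.3e-16). *Stil*, a partner of PLK4 in centriole duplication, was higher at 1 h (0.90, adjusted p = 4.41e-15). Of 22 other genes of appendages, basal body uncapping and satellites, 10 were called, 8 with a fall and 2 with a rise (the same all-gene shares apply), with a median of −0.29 at 2 h and −0.32 at 4 h. *Ccdc14*, a satellite gene, fell by 1.15 at 2 h, *Cby1*, a basal body gene, by 1.14 at 4 h and *Dzip1*, also of the basal body, by 1.02 at 8 h, while *Ninl* rose by 0.93 at 2 h (adjusted p of at most 2.89e-12). In IFT88siRNA against NT over time, 0 genes of these lists, of the mitotic markers and of the S-phase markers were called by edgeR.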

How the data were processed

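RNA was sequenced from 36 libraries of a mouse chondrocyte line, 3 per condition. Per the labels and the methods of the study, polyA RNA was read as paired ends, aligned to GRCm38 with HISAT2 2.1.0 and counted per Ensembl gene with featureCounts of Subread 1.6.3 at its default settings, which do not use strand. The authors deposited raw counts per gene and, separately, TPM from Salmon 0.9.1. The siRNA dose is given differently in the labels and in the methods and is not used. Of 53421 gene IDs, 53274 were found in GENCODE M21.

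Counts were tested with edgeR 4.0.16 (R 4.3.3; TMM scaling, filterByExpr, quasi-likelihood F-test, Benjamini-Hochberg adjustment over all genes tested) in 1 fit per arm (18 libraries) and 1 per time point (6 libraries), and over time in 1 fit of all 36 libraries for the siRNA comparison and the difference in response. A gene was called at an adjusted p under 0.05 and a change over 1.5-fold. Levels are TPM, and values per library are CPM with TMM scaling. Alternatives were DESeq2 1.42.0, its size factors in edgeR, no filter on low counts, limma 3.58.1 on log2(TPM + 1) and log2(TPM + 0.1), the replicate number as a block, no fold threshold and left-out replicates. The scripts were tested on simulated data. The authors' own comparisons and the ImpulseDE2 time course were not used here.

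The *Cep* genes, their roles and the other gene lists were chosen with earlier results of these data known, so their counts are descriptions. The rule allowed any *Cep* gene to be named, and values in every library are given for *Cep55*, the 8 genes with the largest called changes in NT, and the genes with the highest and lowest mean TPM. Up to 4 genes with the largest called changes are named from each other list, and any further library values were given after they had been seen. With 3 against 3 libraries an exact permutation test of 1 gene cannot go below p = 0.1, so p-values come from fits across all genes. Promoters were matched by symbol to RefSeq. *Cep76*, *Cep120*, *Cep192*, *Cep350* and *Cep295nl* had no entry. The values of 1 *Cep* gene, which is part of every count over the 36, are not reported here.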

Additional observations from a re-analysis of the deposited data

Results flagged for a closer look

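For 3 *Cep* genes the response to IL-1β (the change from 0 h) differed between the arms, at differences under 1.5-fold. The test was the interaction test over all 5 times (edgeR, adjusted over all genes). Without the fold threshold 5.53% of all genes passed, beside 3 of 36 *Cep* genes. *Cep170b* had an adjusted p of 0.0122, and it changed by −0.88 in NT at 8 h and by −0.63 in IFT88siRNA on the log2 scale (difference 0.26, adjusted p = 0.0767 at that time). In libraries, *Cep170b* at 8 h was at 191, 185 and 185 CPM in NT and 237, 225 and 199 CPM in IFT88siRNA, without overlap. *Cep170* had an adjusted p of 0.0168, with a log2 change at 2 h of −0.03 in NT and −0.31 in IFT88siRNA (difference −0.28, adjusted p = 0.0306 at that time). It was at 114, 107 and 116 CPM in NT and 87.8, 90.5 and 101 CPM in IFT88siRNA at 2 h. *Cep19*, a ciliary protein that recruits RABL2B, had an adjusted p of 0.0312, with log2 changes at 2 h of −0.39 and −0.67 (difference −0.28, adjusted p = 0.193). At 8 h its changes were −0.34 and −0.13 (difference 0.22, adjusted p = 0.417).

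None of these held under all of 10 alternatives, which changed tool, scaling, filter, unit or block or left out a replicate. The adjusted p was between 0.00274 and 0.478 for *Cep170* (past 0.05 in 4), between 0.000132 and 0.494 for *Cep170b* (past it in 5) and between 0.00858 and 0.463 for *Cep19* (past it in 6).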

How the results depend on the processing

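DESeq2, its size factors in edgeR, no filter on low counts and a model of all 36 libraries kept every count of called *Cep* genes within 1.5 times its reported value. Of 1130 alternative values of 49 results for named genes, 0 reversed in sign and 124 no longer passed the adjusted p, all 124 in comparisons of IFT88siRNA with NT. Of these, 10 were for *Ift88* itself and 114 for *Cep* genes, 42 with limma on TPM, 27 without a replicate number, 37 without a single library and 8 in other fits. The largest adjusted p of the largest changes in NT under any alternative was 0.000938. The results in NT were each gene's largest called change, and scaling by library totals was not among these alternatives. That scaling turned the sign of *Cep152* and *Cep85* at 4 h and of *Cep83* at 2 h, which are outside the 49 results.

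The deposited TPM, which carry no TMM scaling, mostly gave more calls of *Cep* genes. In NT, limma on log2(TPM + 1) called 22 *Cep* genes over time, 4 at 1 h, 19 at 2 h, 15 at 4 h, 2 at 8 h, 2 at 24 h and 13 at 24 h against 2 h, with the same counts without a filter. The shares of all genes called with log2(TPM + 1) were 44.6%, 15.2%, 24.7%, 26.5%, 14.8%, 11.8% and 25.5%. With log2(TPM + 0.1) the counts were 23, 4, 21, 15, 3, 4 and 13, beside 48.4%, 17.7%, 28.2%, 29.7%, 16.5%, 13.8% and 29.1% of all genes. In IFT88siRNA limma on log2(TPM + 1) called 21 over time and 2, 15, 14, 1 and 1 at 1 to 24 h. All-gene shares were 42.3%, 11.7%, 22.0%, 26.0%, 12.7% and 9.75%. With log2(TPM + 0.1) it called 22, 2, 17, 15, 2 and 1, beside 46.6%, 14.4%, 25.4%, 29.4%, 14.7% and 11.4%. Without the fold threshold the counts in NT were 35 over time, 18, 29, 29, 20 and 15 at 1 to 24 h and 26 at 24 h against 2 h. The shares of all genes were 88.4%, 51.7%, 60.9%, 60.9%, 52.4%, 44.9% and 66.4%. In IFT88siRNA the counts were 33, 12, 26, 27, 12 and 13, beside 86.0%, 43.2%, 57.4%, 59.8%, 47.8% and 39.8% of all genes. For IFT88siRNA against NT they were 5, 7, 1 and 3 at 0, 1, 2 and 24 h. Of all genes, 19.5% passed at 0 h, 2.76% at 2 h and 8.66% at 24 h. At 1 h 10.2% of all genes passed as lower and 8.75% as higher. The *Cep* counts were 14 over time, beside 31.8% of all genes, and 3 for the difference in response, beside 5.53%.

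Leaving out replicates, or single libraries (chosen after seeing the data, as was scaling by library totals), gave in NT 13 to 15 calls over time, 2 to 2 at 1 h, 8 to 9 at 2 h, 8 to 10 at 4 h, 1 to 2 at 8 h, 0 to 0 at 24 h and 6 to 10 at 24 h against 2 h. In IFT88siRNA it gave 15 to 17, 1 to 2, 7 to 8, 11 to 13, 0 to 2 and 0 to 0. With a replicate left out, 47.2% to 48.5% of all genes were called over time in NT. At 1 to 24 h these shares were 16.3% to 17.8%, 25.1% to 26.1%, 26.7% to 27.5%, 17.9% to 19.2% and 13.8% to 15.9%. At 24 h against 2 h they were 30.9% to 31.5%. In IFT88siRNA they were 44.5% to 48.1% over time. At 1 to 24 h they were 12.2% to 14.4%, 22.7% to 24.7%, 27.4% to 28.6%, 14.9% to 18.7% and 12.7% to 13.4%. The 8 h count in NT was 2 without replicate 2. In IFT88siRNA the 1 h count was 2 without replicate 2 or without the second 0 h library, and the 8 h count was 1 without replicate 1 or its 8 h library and 0 without replicate 3 or its 8 h library. For IFT88siRNA against NT 0 became 1 at 1 h without the first NT library and over time without replicate 3, with 0 to 0 for the rest. The cause was not tested.

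Under a block for the replicate number the counts were those reported (14 over time in NT, 16 in IFT88siRNA), and no count changed. The numbers were not taken to pair the samples, since deviations of same-numbered libraries correlated at −0.555 to 0.748 (mean 0.0536, beside −0.0271 for other numbers). Of 36 libraries, 19 were closest to their own number, where an even split over the 3 numbers gives 12. Depth limits *Cep126*, with 28 to 124 counts per library.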

Other observations

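Non-coding genes that carry a *Cep* symbol are outside the family described, and were chosen for mention after their values were seen. *Cep83os*, a lncRNA annotated at a promoter shared with *Cep83*, had between 163 and 490 counts per library. In NT it was at 14.2, 13.6 and 14.9 CPM at 0 h and 8.51, 9.30 and 9.02 CPM at 2 h, groups that do not overlap, a log2 change of −0.67 ± 0.0837 (SE, edgeR, adjusted p = 1.98e-07). In IFT88siRNA it was at 15.1, 14.1 and 16.5 CPM at 0 h and 7.94, 8.06 and 8.44 CPM at 2 h (−0.90, adjusted p = 2.13e-09). *Cep83* itself was higher at 4 h (0.51) where *Cep83os* was lower (−0.54, adjusted p = 4.44e-06), and the difference between them was not tested. In GENCODE M21 *Cep83* shares 0% of its exonic length with other genes of the count table, and the counting did not use strand. The antisense gene *Cep112os1* and the intronic gene *Cep112it* had at most 2 and 4 counts in any library, too few to follow over time.

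Across the 36 *Cep* genes the log2 change at 2 h in NT had a Spearman's rho of 0.36 with the length of the gene on the genome, beside 0.06 over 15806 genes, so longer *Cep* genes tended to be nearer to 0 or above. At 8 h it was 0.04 in the *Cep* genes. These points share libraries, and the correlation is a description.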
